A study of Mus musculus and Homo sapiens with 19 samples.

Results

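NGFR, CCBE1, CXCR4, NRK, ZNF521, SFRP1, GCKR, CNTN1, BCHE and MYCT1 are 10 of the 57992 human genes counted in an experiment on MDA-MB-231 breast cancer cells. They were selected on their counts there: each was present in the 3 control libraries and near absent in the 3 libraries labelled PHGDH-overexpressing. Those counts are therefore a description, with no test. The mouse counterparts carry the same names in mouse spelling, with Zfp521 for ZNF521, and all 10 were found in the 24421 genes of the knockdown table and the 55573 genes of the co-culture tables.

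The 10 genes do not form a single pathway. NGFR is the p75 receptor for neurotrophins, a family of growth factors for neurons, and CXCR4 is the receptor for the chemokine CXCL12, known for guiding tumour cells to distant organs. CCBE1 and SFRP1 are secreted: CCBE1 helps the protease ADAMTS3 to activate the lymphatic growth factor VEGFC, and SFRP1 binds WNT ligands and blunts their signal. CNTN1 is a neural adhesion protein held in the membrane by a lipid anchor, BCHE is an esterase of blood plasma that splits choline esters, and NRK is a kinase of the germinal centre kinase family. GCKR is a regulator of sugar metabolism in the liver, ZNF521 is a zinc finger cofactor that inhibits the transcription factor EBF1, and MYCT1 is a MYC target best known from endothelial cells.

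The series holds 19 RNA-seq libraries of cultured cells and asks how differences in PHGDH, the enzyme that starts serine synthesis, bear on tumour spread. The human line MDA-MB-231, from a breast tumour without hormone receptors, gave 3 control libraries and 3 from cells labelled as carrying a PHGDH cDNA in the vector pLHCX. No vector is named for the controls. 4T1, a mouse mammary tumour line, gave 3 libraries with a scramble shRNA (shSCR) and 3 with an shRNA against PHGDH (shPHGDH), both in pLKO.1. Single libraries came from 4T1, from EMT6.5 (a further mouse mammary tumour line) and from Bend3 (a mouse endothelial line) grown alone, and from the tumour and endothelial cells sorted apart after growing together, 4T1 with Bend3 and EMT6.5 with Bend3. No label says that replicates are separate cultures, so p-values measure only the spread between these libraries.

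Libraries held 19.5 to 23.8 M gene counts in MDA-MB-231, 12.7 to 20.5 M in the knockdown and 4.27 to 7.67 M in co-culture. Entries aligned to several places were 48.2% to 55.3% of a co-culture library against 3.54% to 3.70% in MDA-MB-231. Levels are CPM, a gene's counts scaled to a library of 1 M counts and not by gene length, so they are compared between libraries and not between genes. The targeted gene ran against 1 of the labels. PHGDH was at 15.5, 15.6 and 18.3 CPM in the MDA-MB-231 controls and at 5.98, 4.53 and 5.71 CPM in the libraries labelled PHGDH-overexpressing, a log2 change of -1.61 (SE 0.12, edgeR adjusted p = 5.76e-10). Every direction below for MDA-MB-231 therefore belongs to a label and not to a known PHGDH level. In 4T1, Phgdh was at 167, 172 and 163 CPM with shSCR and at 20.9 ± 0.745 CPM (SD, n = 3) with shPHGDH. It was 7.99-fold lower (interval 7.48-fold to 8.53-fold, edgeR adjusted p = 5.16e-28), as labelled.

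Promoter sequence was available for the mouse counterparts of 7 of the 10 genes, from RefSeq on GRCm38.p6. Ngfr and Cxcr4 are shown because they appear together in a single co-culture library, and Myct1 because it separates endothelial from tumour cells. Each window is the 250 bases before the annotated start, printed 5′ to 3′ on the gene's strand. Capitals mark CG, the pair of letters that can be methylated, in Ngfr and Cxcr4. In Myct1 capitals mark GGAA or its complement TTCC, the core letters bound by ETS factors, on which endothelial genes depend.
Ngfr, chr11:95587699-95587948, minus strand: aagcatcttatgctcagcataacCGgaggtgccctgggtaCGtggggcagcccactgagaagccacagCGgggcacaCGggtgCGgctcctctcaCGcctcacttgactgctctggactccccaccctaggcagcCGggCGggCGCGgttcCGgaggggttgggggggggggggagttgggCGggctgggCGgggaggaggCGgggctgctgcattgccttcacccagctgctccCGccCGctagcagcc
Cxcr4, chr1:128592300-128592549, minus strand: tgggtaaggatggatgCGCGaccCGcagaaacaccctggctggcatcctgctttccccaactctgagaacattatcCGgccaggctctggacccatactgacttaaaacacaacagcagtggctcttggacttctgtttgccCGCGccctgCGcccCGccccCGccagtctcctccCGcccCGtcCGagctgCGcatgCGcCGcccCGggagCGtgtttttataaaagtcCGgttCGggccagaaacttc
Myct1, chr10:5593478-5593727, plus strand: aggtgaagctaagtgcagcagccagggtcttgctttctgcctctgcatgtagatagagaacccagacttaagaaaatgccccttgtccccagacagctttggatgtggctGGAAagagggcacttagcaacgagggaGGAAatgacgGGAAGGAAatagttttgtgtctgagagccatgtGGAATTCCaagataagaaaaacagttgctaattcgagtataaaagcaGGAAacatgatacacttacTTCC
The Ngfr window holds 16 CG and the Cxcr4 window 19, and 25.4% and 19.7% of the 32851 mouse promoter windows hold at least as many. CG occurs in 92.1% of all windows, with a median of 6. The Myct1 window holds 3 CG and 8 GGAA matches over both strands, counted also where matches touch. GGAA occurs in 93.4% of all windows, with a median of 3 matches, and 1.45% of windows hold 8 or more. These matches are letters in a window, not measured binding sites.

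In MDA-MB-231 the 10 genes went from clear expression in the controls to 0 or a few counts in the libraries labelled PHGDH-overexpressing. All 10 passed the filter on low counts, through the controls. The groups overlapped in none of them, which the choice of the 10 fixes, so nothing is read from it. Of the 17663 genes tested, 44.5% passed edgeR's quasi-likelihood test with an adjusted p below 0.05, 22.9% lower and 21.6% higher, but the 10 genes were chosen on this contrast and nothing is read from those shares. With library totals in place of TMM scaling 3053 genes were called higher and 4900 lower, against 3816 and 4048. Fewer cells carrying a gene and less RNA per cell cannot be told apart in bulk libraries.

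**Figure D1:**
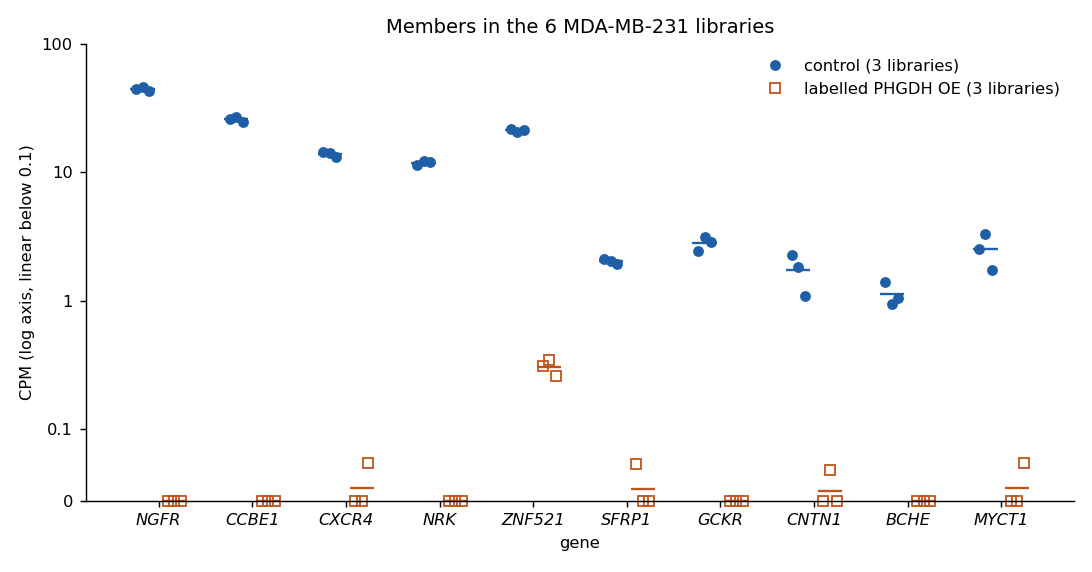
CPM of the 10 genes (log axis, linear below 0.1) in each of the 3 control libraries (filled circles) and the 3 libraries labelled PHGDH-overexpressing (open squares) of MDA-MB-231, with a line at each group mean. Control means run from 1.13 to 44.5 CPM, and ZNF521 is the gene with counts in all 3 labelled libraries.

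The receptors were lost to the last counts. NGFR had 1089, 919 and 858 counts in the controls (44.8, 45.9 and 42.9 CPM) and 0 in each labelled library. With the 3 labelled libraries set to a summed floor of 3 counts, it was at least 916-fold lower. CXCR4 had 348, 284 and 264 counts in the controls (14.3, 14.2 and 13.2 CPM) and 0, 0 and 1 in the labelled libraries. The single count puts CXCR4 859-fold lower, with a 95% exact counting interval from 154-fold to 33974-fold. For both receptors the control libraries lay close together and every labelled library lay far below them. Schwann and neural crest markers, set beside NGFR because it also marks those cells, summed to 31.9 to 39.4 CPM in the controls and 18.5 to 18.6 in the labelled libraries, with S100B at 0 in all 6 and MITF, a pigment cell regulator, giving most of the sum. Leukocyte markers, set beside CXCR4, summed to 107 to 115 and 113 to 122 CPM, with CD3E at 0 in all 6. CD68, with means of 107 and 110 CPM, gave most of that sum. CSF1R went from 3.19 to 6.93 CPM, CD14 from 1.22 to 0.696 and PTPRC from 0.404 to 0.164. The part of other cells in the result was not tested.

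Both secreted proteins showed the same step. CCBE1 had 636, 542 and 494 counts in the controls (26.2, 27.1 and 24.7 CPM) and 0 in each labelled library, at least 534-fold lower. SFRP1 had 52, 41 and 39 counts in the controls (2.14, 2.05 and 1.95 CPM) and 1, 0 and 0 in the labelled libraries. That is 127-fold lower, with an interval from 22.3-fold to 5037-fold. SFRP1 varied little among its controls, with 2.05 ± 0.0942 CPM (SD, n = 3), although its counts were few.

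The adhesion protein, the esterase and the sugar metabolism regulator had few counts in the controls already. CNTN1 had 55, 37 and 22 counts in the controls (2.26, 1.85 and 1.10 CPM) and 0, 1 and 0 in the labelled libraries, 109-fold lower with an interval from 19.23-fold to 4355-fold. BCHE had 34, 19 and 21 counts (1.40, 0.949 and 1.05 CPM) and then 0 in every labelled library, at least 23.7-fold lower. GCKR had 59, 63 and 57 counts (2.43, 3.15 and 2.85 CPM) and then 0 in every labelled library, at least 57.2-fold lower. Their bounds are looser than that of NGFR because the control counts set how far a 0 can reach. CNTN1 was also the most uneven of the 10 among its controls, with a coefficient of variation of 33.9% against 2.13% for ZNF521. Its control counts were 22 to 55 against 416 to 525 for ZNF521. Among other genes with few control counts, SFRP1 (39 to 52) was at 2.05 ± 0.0942 CPM and MYCT1 (35 to 67) at 2.55 ± 0.797 (SD, n = 3 each). Counting error is wider at fewer counts, and its part in these spreads was not tested.

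The kinase NRK, the zinc finger cofactor ZNF521 and the MYC target MYCT1 completed the set. NRK had 279, 247 and 239 counts in the controls (11.5, 12.3 and 12.0 CPM) and 0 in each labelled library, at least 245-fold lower. ZNF521 had 525, 416 and 430 counts in the controls (21.6, 20.8 and 21.5 CPM) and 6, 8 and 5 in the labelled libraries (0.309, 0.345 and 0.262 CPM). ZNF521 was the exception among the 10, since every labelled library kept several counts. It was 69.2-fold lower, with an interval from 44.1-fold to 115-fold. MYCT1 had 62, 67 and 35 counts in the controls (2.55, 3.35 and 1.75 CPM) and 0, 0 and 1 in the labelled libraries, 157-fold lower with an interval from 27.8-fold to 6249-fold. Endothelial markers, set beside MYCT1, summed to 21.0 to 23.5 CPM in the controls and 17.3 to 18.7 in the labelled libraries, with CDH5, which defines endothelial junctions, at 0 in all 6. TIE1, an endothelial receptor, had 33, 27 and 21 counts and then 1, 0 and 0, and was the marker with a step like that of the 10. PECAM1, an endothelial adhesion molecule, went the other way, from 6.55 to 9.74 CPM. The part of other cells in the MYCT1 values was not tested.

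**Figure D2:**
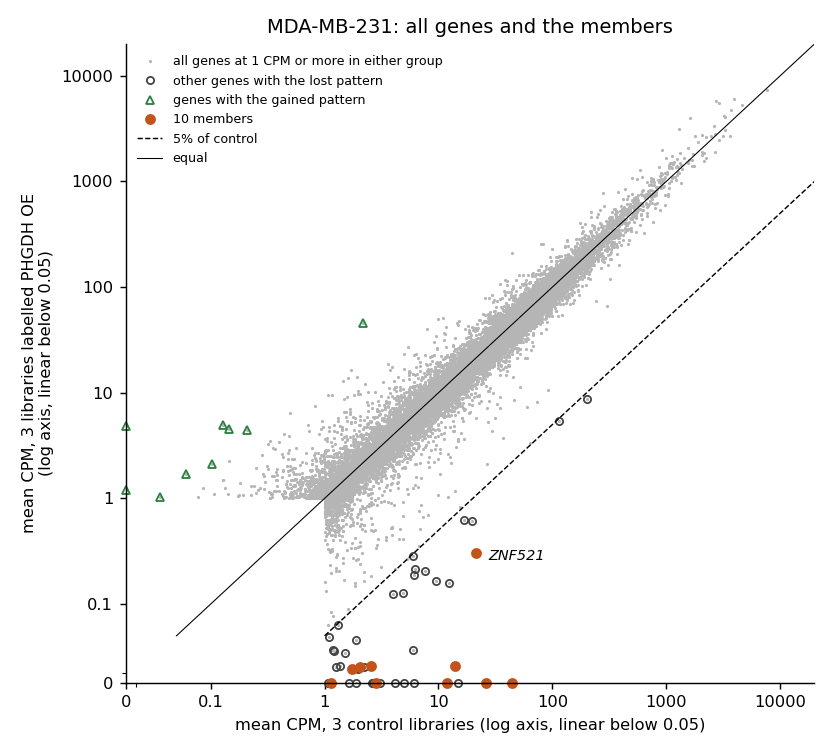
Mean CPM over the 3 labelled libraries against mean CPM over the 3 control libraries (log axes, linear below 0.05) for genes at 1 CPM or more in either group, with the 10 genes filled, other genes below 5% of control as open circles and the mirror pattern as triangles. The 10 genes sit on or near 0, with ZNF521 at 0.305 CPM above the others.

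A like pattern was rare in the table. With the rule that a gene reach 1 CPM in the controls and keep at most 5% of it in the labelled libraries, 44 of 15956 genes (0.276%) were found, among them the 10, which the choice of the 10 fixes. The mirror pattern held for 9 of 15911 genes (0.0566%). Of the 44, 16 were at 0 in all 3 labelled libraries. The 10 genes kept from 0% to 1.43% of their control mean, the highest being ZNF521. At the edge of the rule, the long RNA RP11-494M8.4 kept 4.85%, just inside, and PLXDC2, a membrane protein, kept 5.05%, just outside. Among the other genes of the 44, CST1, a secreted inhibitor of cysteine proteases, had 201 CPM in the controls and 8.75 in the labelled libraries. MMP1, a collagenase, had 115 and 5.45 CPM. Both kept counts in every labelled library. INHBB, a subunit of activin and inhibin, had 19.6 and 0.606 CPM, and WTAPP1, a pseudogene transcript, had 16.7 and 0.618. MAGEC1, an antigen of testis and tumours, had 15.0 CPM in the controls and 0 counts in the labelled libraries, at least 309-fold lower.

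Its relative MAGEC2 was among the genes of the mirror pattern, with 2.16 CPM in the controls and 45.2 in the labelled libraries, 21.21-fold higher (interval 17.9-fold to 25.4-fold). MAPK4, an atypical MAP kinase, had 0 counts in all 3 controls and 84, 114 and 99 in the labelled libraries, at least 103-fold higher. MUC4, a membrane mucin, was at 0.127 and 4.95 CPM, and PREX1, an activator of the GTPase RAC, at 0.0607 and 1.71. DMKN, ZBTB7C, RP13-895J2.3 and AC011899.9 were also among the 9, at 1.20 to 4.51 CPM in the labelled libraries. None of the 9 was on the partner lists of the 10 genes.

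None of the partners of the 10 genes met the rule for the lost pattern, although CNTN5, a relative of CNTN1 below its level of 1 CPM, had 10, 9 and 14 counts in the controls and 0 in each labelled library, at least 10.5-fold lower. CNTN5 did not pass the filter and is named after its values were seen. The 10 lists of ligands, receptors, cofactors and relatives together held 139 genes, of which 83 were tested in MDA-MB-231. Of those, 21 rose and 27 fell, with a median log2 change of -0.01, equal to the median of -0.01 over all tested genes. A call was made for 57.8% of them, beside 44.5% of all tested genes.

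For NGFR, the neurotrophin list had 3 risers and 1 faller among 10 tested genes. MAGED1, an adaptor that binds the NGFR tail, rose by a log2 of 1.62 (SE 0.07, edgeR adjusted p = 4.52e-14), from 34.5 to 106 CPM. BDNF, a ligand of NGFR, fell by 0.49 on the log2 scale (SE 0.08, edgeR adjusted p = 2.08e-05). SORT1, the co-receptor of NGFR, was at 163 and 148 CPM and was not called. NTRK2 and NTRK3, further receptors of these ligands, were close to absent in both groups, with 8 and 2 counts summed for NTRK2 and 0 for NTRK3. For CXCR4, the ligand CXCL12 had 0 counts in all 6 libraries and the scavenging receptor ACKR3 had 3 and 1 counts summed. Of the 10 tested genes of its list 4 rose and 2 fell. ARRB2, an arrestin that turns off receptors of this class, fell by 2.06 on the log2 scale (SE 0.13, edgeR adjusted p = 2.58e-11), from 14.8 to 3.52 CPM. CD74, a receptor for the cytokine MIF that pairs with CXCR4, rose by 0.48 (SE 0.06, edgeR adjusted p = 6.55e-07).

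For the secreted proteins, VEGFC itself fell by 0.63 on the log2 scale (SE 0.07, edgeR adjusted p = 3.73e-07), from 96.6 to 62.2 CPM, while ADAMTS3 was at 3.87 and 4.46 CPM and was not called. In that list 3 of 7 tested genes fell and 0 rose, with the largest fall in the VEGF receptor KDR at -0.85 (edgeR adjusted p = 2.70e-06). In the WNT list 3 rose and 7 fell of 19 tested. WNT5A, a ligand, fell by 2.05 on the log2 scale (SE 0.35, edgeR adjusted p = 4.88e-05), and WNT7B, a further ligand, rose by 0.40 (SE 0.07, edgeR adjusted p = 5.77e-05). The relatives of SFRP1 offered no level to compare, with 0 counts for SFRP2 and SFRP4 and 1 to 5 counts in each group for SFRP5 and FRZB.

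Among the other lists, CNTNAP1, the partner of CNTN1 at the nodes of nerve fibres, fell by 0.39 on the log2 scale (SE 0.10, edgeR adjusted p = 0.00209), the adhesion protein L1CAM fell by 0.54 and the receptor phosphatase PTPRB rose by 1.58. For GCKR, the hexokinase HKDC1 rose by 2.39, from 1.98 to 10.4 CPM, and HK2 fell by 0.71. ACHE, the closest relative of BCHE, had 23 and 5 counts summed and did not pass the filter. The muscarinic receptor CHRM3 rose by 3.16, from 1.44 to 13.1 CPM, the largest rise of the partners tested, and the nicotinic subunit CHRNB1 fell by 0.80. MAP4K4, a relative of NRK, fell by 0.17 (SE 0.06, edgeR adjusted p = 0.0341), a call lost in 4 of 10 alternatives. Of its list 1 gene rose, MAPK9 by 0.35, and 6 fell, MAPK8 by 0.62 at most. ZNF423, the relative of ZNF521, had 0 counts and EBF1 had 3 and 1, while EBF4, a relative of EBF1, fell by 2.98 (SE 0.30, edgeR adjusted p = 4.74e-08), from 2.87 to 0.361 CPM, and CHD4, a chromatin remodeller, rose by 0.32. MYC fell by 0.43 (SE 0.06, edgeR adjusted p = 1.05e-05), and in the MYCT1 list 3 of 5 tested genes fell and 0 rose. Each call in this paragraph is from edgeR at an adjusted p under 0.05.

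**Figure D3:**
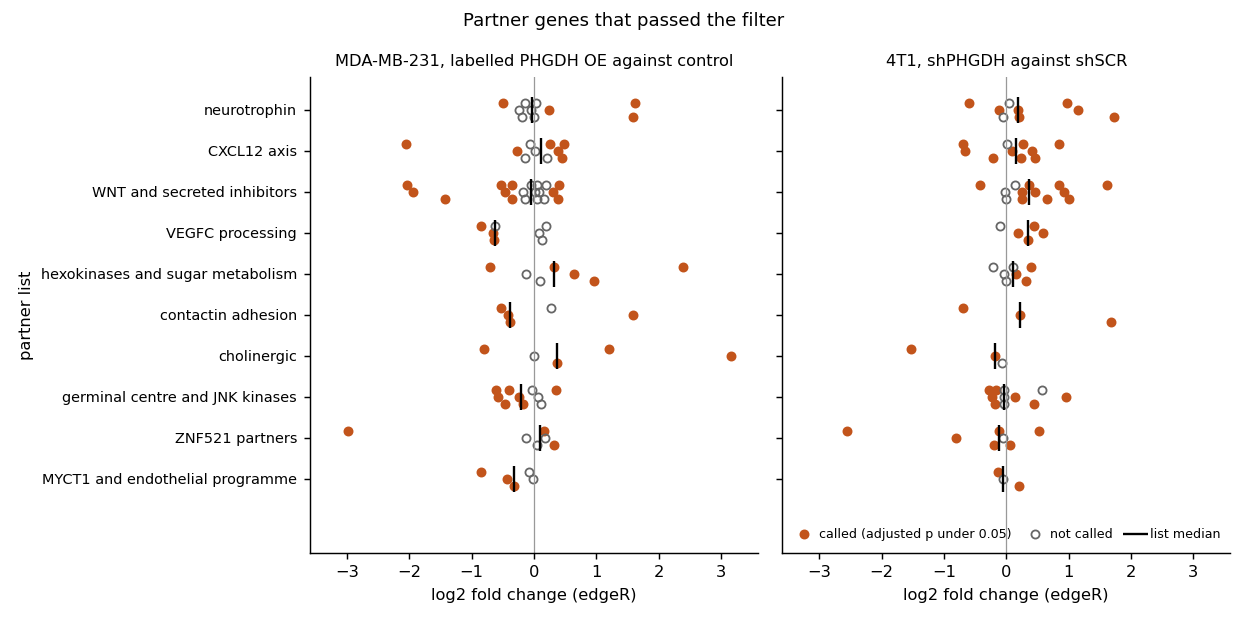
Log2 fold changes (edgeR) of the tested partner genes, by list, in MDA-MB-231 (left) and in the 4T1 knockdown (right), filled where called at an adjusted p under 0.05 and open where not, with a line at each list's median. In MDA-MB-231 the medians run from -0.63 for the VEGFC list to 0.36 for the cholinergic list, and in the knockdown from -0.18 for the cholinergic list to 0.37 for the WNT list.

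In the 4T1 knockdown most of the mouse counterparts were silent, and 2 could be tested, Sfrp1, which rose by a wide margin with shPHGDH, and Ccbe1, whose call for a small rise was not stable. This comparison played no part in choosing the genes. Only Sfrp1 and Ccbe1 passed the filter on low counts, and Sfrp1 passed through the shPHGDH libraries, so its being tested and its being higher are not separate facts. In the fit 59.7% of the 11568 tested genes were called, 30.1% higher and 29.6% lower, so calls as such were common.

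Sfrp1 lies on GRCm38 chromosome 8 from 23411502 to 23449632, on the plus strand. It had 6, 5 and 10 counts with shSCR (0.410, 0.290 and 0.521 CPM) and 241, 180 and 237 with shPHGDH (15.2, 14.3 and 11.6 CPM). Every shPHGDH library was far above every shSCR library. Averaged over replicates, Sfrp1 was at 0.407 ± 0.115 and 13.7 ± 1.86 CPM (SD, n = 3 each), 32.8-fold apart with a 95% exact counting interval from 21.3-fold to 53.3-fold. Sfrp1 rose by a log2 of 5.02 (SE 0.20, edgeR adjusted p = 5.63e-18), and the call held in 11 of 11 alternatives, with log2 changes from 4.68 to 5.26. Libraries shSCR 1 and 2 ran on lane 5 and the other 4 on lane 6, and within lane 6 the single shSCR library, replicate 3, was at 0.521 CPM against 11.6 to 15.2. The nearest tested genes moved little. Kat6a, Gins4 and Golga7, 0.154 to 0.468 Mb away on the one side, changed by -0.16, -0.30 and -0.02 on the log2 scale. Adam3, Adam9 and Tm2d2, farther off at 1.23 to 1.57 Mb on the other side, changed by 0.30, -0.15 and -0.32. Of these genes Golga7 and Adam3 were not called by edgeR. The median over the 625 tested genes of chromosome 8 was -0.25.

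Ccbe1 lies on GRCm38 chromosome 18 from 66045302 to 66302741, on the minus strand. It overlaps the antisense transcript Gm15958 and, on its own strand, AC157784.1 and Mir694, which strand would not separate. It was the counterpart with the most counts in 4T1, with 6326, 7438 and 8571 counts with shSCR (432, 432 and 446 CPM) and 7273, 5593 and 9468 with shPHGDH (459, 445 and 465 CPM). The groups overlapped, with means of 437 ± 8.17 and 456 ± 10.5 CPM (SD, n = 3 each). The log2 change was 0.06 (SE 0.02, edgeR adjusted p = 0.0293), and the call was lost in 7 of 11 alternatives, among them lane in the model (adjusted p = 0.397) and library totals (adjusted p = 0.434). The sources used here do not say whether counting used strand, so reads of Gm15958 and Ccbe1 cannot be told apart. Of the 6 tested neighbours of Ccbe1, Sec11c rose by 0.12 and Chmp1b fell by 0.29 on the log2 scale. Oacyl, Lman1, Gnal and Mppe1 were not called by edgeR. The median over the 291 tested genes of chromosome 18 was -0.14.

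**Figure D4:**
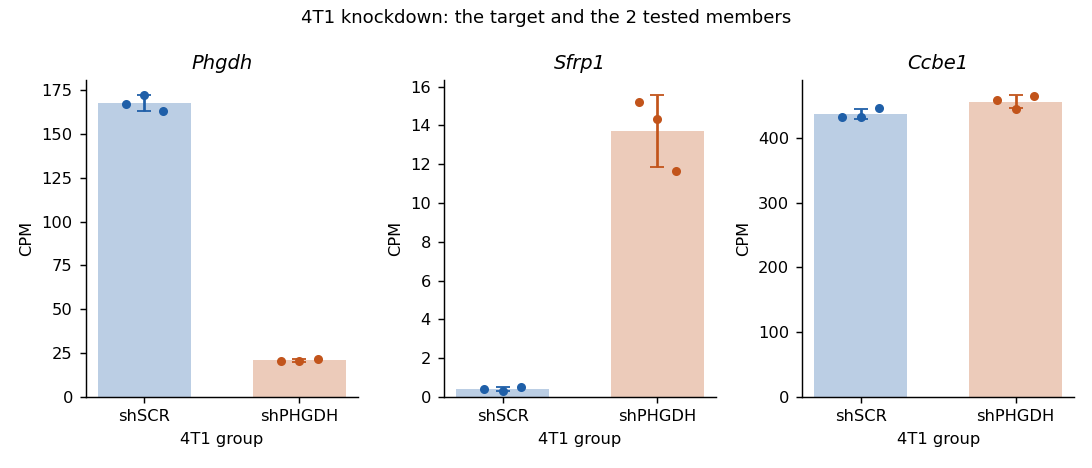
CPM of Phgdh, Sfrp1 and Ccbe1 in the 3 shSCR and 3 shPHGDH libraries of 4T1 (points), with bars at the mean and error bars of 1 SD. Sfrp1 goes from a mean of 0.407 to 13.7 CPM while Ccbe1 stays between 432 and 465 CPM in all 6 libraries.

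The other 8 could not be tested. Gckr had 2, 3 and 2 counts with shSCR and 5, 1 and 2 with shPHGDH, a ratio of 1.20 with an interval from 0.379 to 3.87. Ngfr had 1, 0 and 0 counts and then 4, 0 and 1, a ratio of 5.23 with an interval from 0.586 to 247. Both intervals span 1, so no difference was detectable at this depth. Cxcr4 had a single count, in shPHGDH replicate 2, and Cntn1 had 1 count in each group. Nrk, Zfp521, Bche and Myct1 had 0 counts in all 6 libraries, which allows up to 0.146 to 0.236 CPM in a library. Set side by side without a test, SFRP1 was 127-fold lower in the libraries labelled PHGDH-overexpressing and Sfrp1 32.8-fold higher with shPHGDH, and PHGDH mRNA was lower in both of these groups.

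Marker sums also moved in the knockdown. Genes of mesenchymal-like tumour cells summed to 2942 to 2995 CPM with shSCR and 4125 to 4162 with shPHGDH. Within that list Vim, Sparc and Axl rose, by 1.07, 1.70 and 0.18 on the log2 scale, Cd44 was not called and Zeb1 fell by 1.54 (edgeR). Epithelial markers summed to 3291 to 3388 and 3184 to 3204 CPM, and within that list the keratins Krt8 and Krt18 rose, by 0.33 and 0.55, while Epcam, Cdh1, Krt14, Cldn7 and Esrp1 fell, by 0.53 to 1.45 (edgeR). Fibroblast markers summed to 6.41 to 8.13 and 9.86 to 11.0 CPM, and endothelial markers to 59.3 to 65.4 and 88.8 to 90.9. Nearly all of the endothelial sum was Eng, at 62.0 and 88.8 CPM, while Kdr had 0 counts in all 3 shSCR libraries. The part of other cells, or of these marker changes, in the Sfrp1 rise was not tested.

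The partner genes leaned upward in the knockdown. Of 138 mouse partners 71 were tested, and 35 rose and 18 fell, with a median log2 change of 0.11 beside -0.01 over all tested genes. A call was made for 74.6%, beside 59.7% of all tested genes. The WNT list, to which Sfrp1 belongs by function, had 9 risers and 1 faller among 13 tested. Fzd7, a WNT receptor, rose by a log2 of 1.62 (SE 0.07, edgeR adjusted p = 2.53e-17), from 21.4 to 65.2 CPM, and Wnt10a, a ligand, fell by 0.42 (SE 0.09, edgeR adjusted p = 0.000137). For Ccbe1, Vegfc was at 41.6 and 39.0 CPM and was not called, Adamts3 had 0 counts in all 6 libraries, and 4 of 5 tested genes rose, with the protease Pcsk7 at 0.59 (edgeR adjusted p = 2.80e-08).

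The partners of the silent counterparts were measurable all the same. Among neurotrophin genes Sorl1, a sorting receptor, rose by 1.73 on the log2 scale (SE 0.08, edgeR adjusted p = 6.82e-17), Maged1 fell by 0.59 (SE 0.02, edgeR adjusted p = 3.17e-18), and Ntrk2 and Ntrk3 had 1 and 0 counts over the 6 libraries. Sort1 rose by 1.15 (SE 0.35, edgeR adjusted p = 0.00542), a call lost in 2 of 11 alternatives. Ackr3 rose by 0.42 (SE 0.05, edgeR adjusted p = 1.08e-08), from 49.0 to 65.6 CPM, the arrestins Arrb1 and Arrb2 changed by 0.84 and -0.70 (both called), and Cxcl12 had 1 and 4 counts summed. Cntnap1 rose by 1.68 (SE 0.12, edgeR adjusted p = 8.88e-13), from 3.44 to 11.0 CPM, and Notch1, a receptor of contactins, fell by 0.69. Ache fell by 1.53 (SE 0.41, edgeR adjusted p = 0.00210), from 49 to 16 counts. Ebf1, the factor that Zfp521 inhibits, fell by 2.55 (SE 0.16, edgeR adjusted p = 1.37e-13), from 7.95 to 1.34 CPM, while the cofactor Mta1 rose by 0.53 and Zfp423 had 0 counts. Map4k4 and Myc were not called (edgeR), at -0.04 and -0.05 on the log2 scale. The largest moves in the remaining lists were Tnik at 0.95 and Map2k7 at -0.28 among kinases, Pfkfb3 at 0.40 among the sugar kinases, and Max at 0.20 and Tjp1 at -0.14 in the MYCT1 list, all called by edgeR.

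In the co-culture set each condition is 1 library, so ratios carry counting error only and no test. Of the 10 genes 7 had counts in some library, and these fell into tumour and endothelial genes. Nrk, Cntn1 and Bche had 0 counts in all 7 libraries, which allows up to 0.391 to 0.703 CPM. The share of genes that differed at least 2-fold, among those with 10 counts in either library, was 32.2% for 4T1 with Bend3, 21.7% for EMT6.5 with Bend3, 12.9% for Bend3 with 4T1 and 11.2% for Bend3 with EMT6.5. Of the members with 10 counts, 4 of 5, 2 of 2, 1 of 3 and 0 of 2 did so, in the same order. In 4T1, Ngfr, Cxcr4 and Myct1 had 0 counts alone and reached 10 counts only with Bend3. For them the filter fixed that they differed, so nothing is read from these counts beside the shares. The 2 Bend3 comparisons share the Bend3 library grown alone.

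Ngfr and Cxcr4, whose promoters are printed above, had counts in the same single library. Ngfr, on GRCm38 chromosome 11 from 95568818 to 95587735, had 11 counts (2.58 CPM) in 4T1 sorted from Bend3 and 0 in the 6 others. Cxcr4, on chromosome 1 from 128588199 to 128592293, had 15 counts (3.51 CPM) there and 0 in the 6 others. Against the 3-count floor of 4T1 grown alone, Ngfr was at least 3.70-fold and Cxcr4 at least 5.04-fold higher. They are among 32 of 11682 genes (0.274%) with 10 counts in that library and 0 in all others. In the same library Schwann and neural crest markers summed to 49.4 CPM against 16.0 in 4T1 alone, with Mitf at 187 and 50 counts and Sox10 at 0, and leukocyte markers to 15.2 against 9.76, with Ptprc at 1 and 0 counts and Cd3e at 0. EMT6.5 with Bend3 had a like Schwann sum, 50.3 CPM against 11.6 alone, and 0 counts of Ngfr and Cxcr4. The part of other cells in the Ngfr and Cxcr4 counts was not tested. Cxcl12, the ligand of Cxcr4, was at 102, 105 and 131 CPM in the 3 Bend3 libraries and at 0 to 0.469 CPM in the tumour libraries. Bdnf, a ligand of Ngfr, was at 30.6 to 175 CPM in the 7 libraries. Ackr3 was at 47.6 CPM in 4T1 alone and 4.22 with Bend3, at 31.0 and 27.7 CPM in EMT6.5, and at 147 to 202 CPM in Bend3.

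**Figure D5:**
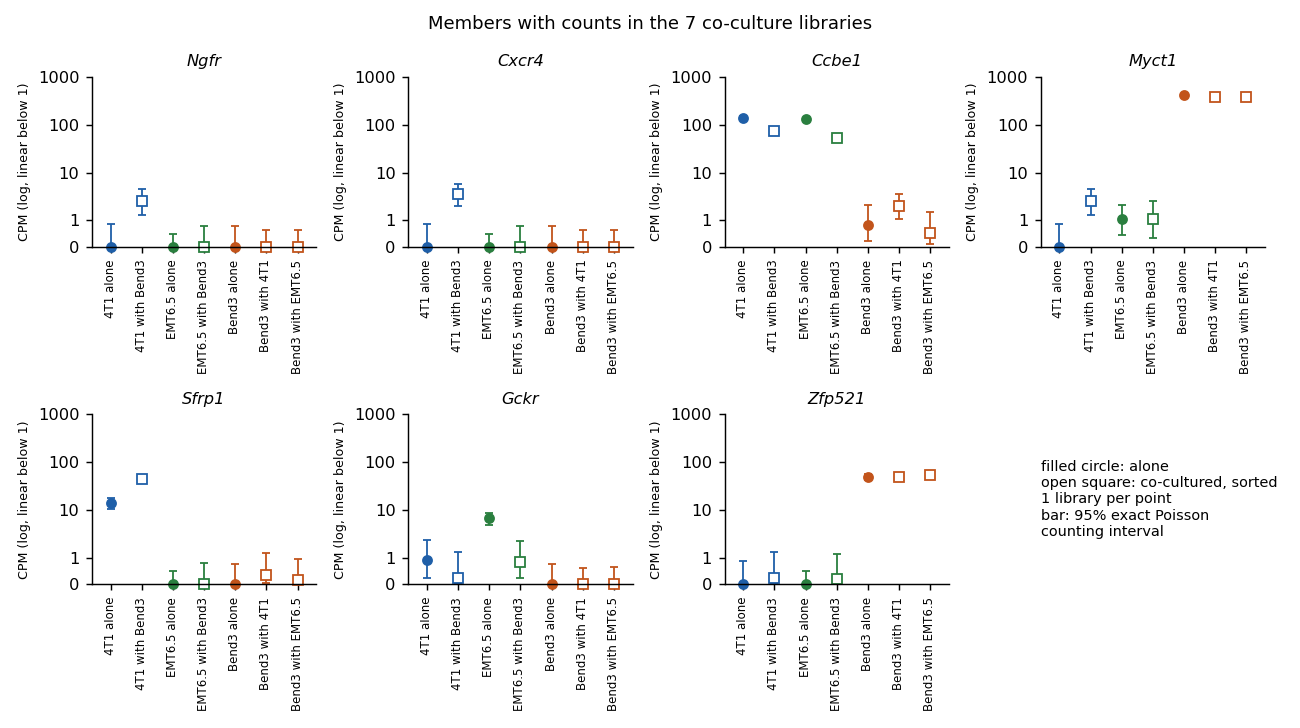
CPM (log axis, linear below 1) of the 7 genes with counts in the co-culture set, 1 library per point, filled for cells grown alone and open for cells sorted from co-culture, with 95% exact Poisson counting intervals. Myct1 and Zfp521 are high in the 3 Bend3 libraries, Ccbe1 in the 4 tumour libraries and Sfrp1 in the 2 4T1 libraries.

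Ccbe1 was a gene of both tumour lines. It had 595 counts (138 CPM) in 4T1 alone and 315 (73.8 CPM) with Bend3, a ratio of 0.534 with an interval from 0.464 to 0.613. It had 1029 counts (134 CPM) in EMT6.5 alone and 244 (52.1 CPM) with Bend3, a ratio of 0.388 with an interval from 0.336 to 0.447. The level was lower beside endothelial cells in both lines, with 1 library each. Other markers moved in the same libraries, beside the values of Ccbe1, Sfrp1 and Gckr alike. Fibroblast markers summed to 11.2 CPM in 4T1 alone and 49.0 with Bend3, and to 3054 and 1861 CPM in EMT6.5, with Dcn and Lum at 0 throughout. Mesenchymal-like tumour markers summed to 3999 and 7317 CPM in 4T1 and to 5909 and 6055 in EMT6.5, and epithelial markers to 1333 and 1713 and to 583 and 524. Within the lists the 4T1 counts, alone and with Bend3, were mixed. Vim (8229 and 21133), Cd44 and Zeb1 were higher with Bend3, while Axl (5376 and 4067) and Sparc were lower. Krt18 (1843 and 3521), Krt8, Epcam and Krt14 were higher, while Cdh1 (2789 and 1927), Esrp1 and Cldn7 were lower. Pdgfra, at 20 and 160 counts, gave most of the 4T1 fibroblast sum with Bend3. In EMT6.5, with libraries of 7.67 and 4.69 M counts, Col1a1 (10848 and 3642) and Col1a2 (12319 and 4619) gave most of that sum. Pdgfrb went the other way, with 190 and 402 counts, and Pdgfra had 78 and 62. The part of these markers in the results was not tested. Bend3 had 4, 12 and 3 counts of Ccbe1 alone, with 4T1 and with EMT6.5, and the interval of the ratio with 4T1, 0.740 to 10.4, spans 1. Epithelial markers, set beside these counts, summed to 1.46, 28.1 and 6.26 CPM in the same Bend3 libraries, and the part of tumour RNA was not tested. Vegfc, the growth factor that Ccbe1 helps to activate, was at 14.6 and 2.34 CPM in 4T1 and 8.60 and 2.99 in EMT6.5, and Adamts3 had 0 counts throughout.

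Sfrp1 was a 4T1 gene. It had 59 counts (13.7 CPM) in 4T1 alone and 194 (45.5 CPM) with Bend3, a ratio of 3.32 with an interval from 2.47 to 4.52. EMT6.5 had 0 counts in both states, and Bend3 had 0, 2 and 1. The 13.7 CPM of 4T1 grown alone lies among the shPHGDH libraries of the knockdown, at 11.6 to 15.2 CPM, and above the shSCR libraries, at 0.290 to 0.521. The tables were counted and scaled separately, so that comparison has no test. Ccbe1 levels also differed between the tables, at 138 CPM in 4T1 alone and at 432 to 465 CPM in the knockdown libraries. Gckr was mostly an EMT6.5 gene, with 51 counts (6.65 CPM) alone and 4 (0.853 CPM) with Bend3, a ratio of 0.128 with an interval from 0.0337 to 0.349. It had 4 and 1 counts in 4T1, a ratio of 0.252 whose interval of 0.00512 to 2.55 spans 1, and 0 counts in all 3 Bend3 libraries.

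Myct1 and Zfp521 were endothelial genes. Myct1, on GRCm38 chromosome 10 from 5593775 to 5606904, had 2028 counts (424 CPM) in Bend3 alone, 2222 (378 CPM) with 4T1 and 2167 (377 CPM) with EMT6.5. The ratios to Bend3 alone were 0.892 (interval 0.839 to 0.947) and 0.888 (0.835 to 0.944), so the level was close to that of Bend3 alone in both. 4T1 had 0 counts of Myct1 alone and 11 (2.58 CPM) with Bend3, 3.70-fold higher against the floor with the 11 counts taken as exact. EMT6.5 had 8 (1.04 CPM) and 5 (1.07 CPM). Zfp521, on chromosome 18 from 13687013 to 13972787, had 233, 286 and 308 counts in Bend3 (48.7, 48.7 and 53.5 CPM), with ratios of 0.999 (0.837 to 1.19) and 1.10 (0.923 to 1.31). Tumour cells had 0 counts of Zfp521 alone and 1 count in each co-culture. Endothelial markers, set beside these counts, summed to 75.0 CPM in 4T1 alone and 157 with Bend3, to 85.4 and 89.6 in EMT6.5, and to 6207, 7939 and 8603 in the Bend3 libraries. The part of endothelial RNA in the tumour values was not tested. Zfp423, the relative of Zfp521, was at 35.6, 51.9 and 50.7 CPM in Bend3 and at 0 or 1 counts in tumour cells, while their shared target Ebf1 was at 148 and 99.0 CPM in EMT6.5 and at most 5.04 CPM elsewhere. The endothelial factor Erg was at 225 to 271 CPM in Bend3.

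Read across the experiments, some of the 10 genes had clear counts in mouse cells and others had few or none. The human and mouse tables were counted and scaled separately, so their levels are not compared. Ccbe1 had counts in every mouse library and was high in each tumour library. Sfrp1 had counts in every 4T1 library, and Myct1 and Zfp521 had at least 233 counts in each Bend3 library and 0 in the knockdown set. Gckr reached 51 counts (6.65 CPM) in EMT6.5 alone and few elsewhere, and Ngfr, Cxcr4 and Cntn1 reached at most 15 counts in any mouse library. Nrk and Bche had 0 counts in all mouse libraries.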

How the data were processed

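The 10 genes, the partner and marker lists and the tests were chosen with earlier results of these data known. RNA-seq libraries (stranded mRNA, 50 bp single-end reads, per the labels' protocols) were deposited as raw gene counts. The authors used Trim Galore 0.5.0, HISAT2 2.1.0 and HTSeq, per the submitters' processing notes, on GRCm38 for mouse; the sources used here give neither the human build nor the counting settings. The MDA-MB-231 columns named SCR were read as the controls, and 10 further library columns of the knockdown table were not used.

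Counts of MDA-MB-231 and of the knockdown were fitted separately with edgeR 4.0.16 in R 4.3.3 (TMM, default filter on low counts, quasi-likelihood F-test, Benjamini-Hochberg adjusted p under 0.05 over all tested genes). CPM there use TMM-scaled library sizes, and in co-culture the sum of gene counts. Counting intervals are 95% and exact. A group at 0 was set at 3 counts, and bounds against that floor take the other group's counts as exact. Without molecular identifiers, these intervals and floors reflect counting error alone. Depth was 4.27 to 23.8 M counts per library. Alternatives were DESeq2 1.42.0, library totals, no filter, a replicate block, lane, and leaving out each library. The edgeR script was first tested on simulated counts with known changes.

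Named were the 10 genes, per partner list the called gene with the largest rise and fall plus direct partners, the genes most like the 10 in MDA-MB-231 (8 per pattern, by mean CPM) and 3 tested neighbours on each side in mouse, placed with GENCODE vM21. Other genes were named after their values were seen. The human neighbours were not analysed here, and a few direct partners are not reported here.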

Additional observations from a re-analysis of the deposited data

How the results depend on the processing

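In the knockdown 2 mouse counterparts were called, both higher, beside 59.7% of the 11568 tested genes called in either direction. Sfrp1 passed the filter through the shPHGDH libraries, so nothing is read from that count. The count was 1 with lane in the model, 1 with library totals, and 1 to 2 when each library was left out in turn. The gene that lost its call was Ccbe1. With the replicate block the count was 1 as well, with Ccbe1 at an adjusted p of 0.0561 and Sfrp1 at 1.28e-11 (edgeR). Same-numbered libraries did not deviate together (in MDA-MB-231, r from -0.02 to 0.04; in the knockdown, r from -0.05 to -0.0001). With 1 library left out, the call was lost without shPHGDH replicate 1 or 3 and without shSCR replicate 1 or 2; the Ccbe1 adjusted p ran from 0.00849 to 0.14 by edgeR. All other counts of calls stayed within 1.5 times their value, and no call changed sign in the alternatives run. The pattern of MDA-MB-231, by alternatives added after seeing the data, held for 41 to 51 genes. Depth limits the 3 genes with few control counts most (BCHE, CNTN1, SFRP1), and 1 library per condition limits co-culture.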
